A study of Mus musculus with 74 samples.

Results

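The Zfp genes are the mouse genes whose symbol is Zfp followed by a number, a naming series given to proteins with zinc fingers, most of them of the C2H2 kind. In the deposited expression tables of a mouse macrophage cell line stimulated with lipopolysaccharide (LPS), 344 of 24851 rows carried such a symbol once the Zfp36 genes, RNA-binding proteins with another kind of finger, were set aside. Of these, 290 had a mean of at least 10 normalised reads over the 12 libraries of the 60 min table and are described here as the Zfp members, and 54 lay below that minimum. Zfp462 (mean 10.2) and Zfp964 (11.1) were just inside the minimum, and Zfp14 (9.19) and Zfp541 (8.88) just outside.

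C2H2 zinc finger proteins form the largest class of mammalian transcription factors. Many carry a KRAB box, which recruits the corepressor TRIM28 (KAP1) and through it the methyltransferase SETDB1 and HP1 proteins, so that histone H3 lysine 9 becomes trimethylated at the bound DNA. These KRAB zinc finger genes sit in clusters of tandem copies and are best known for silencing retroelements and imprinted genes; at some heterochromatic sites the histone variant H3.3 is deposited as well. Other Zfp genes have no KRAB box and act as cofactors, ubiquitin or SUMO ligases, or ribosome and spindle factors.

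RNA was measured by sequencing in 3 lines at 0, 60 and 120 min of LPS, with 2 libraries in each of the 9 groups. The lines were the one labelled 264, the one labelled 3205 and unedited RAW264.7, a mouse macrophage-like tumour line transformed by Abelson leukaemia virus. The series describes its edited RAW264.7 lines as hypomorphic or as CRISPR double knockouts of H3f3a and H3f3b, the genes of histone H3.3, and the labels do not say which of these 264 or 3205 is. Each number is taken here as 1 line. The labels name bone marrow derived macrophage as the tissue of these libraries, although their source is given as RAW264.7. LPS of S. typhosa at 100 ng/mL is stated for primary macrophages, and a dose for the cell lines was not given in the sources used here. Nothing states that the 2 libraries of a group came from separate cultures, so a p-value covers no more than the spread of these libraries, which may be technical. In bulk RNA, fewer cells of a type and less RNA per cell cannot be told apart.

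The 18 libraries held 13084927 to 53860392 counted reads, and 16108 to 18950 genes had a read. H3f3a lay between 172 and 236 normalised reads in line 264 and between 37.5 and 76.2 in line 3205, against 2055 to 3109 in RAW264.7. H3f3b lay between 5642 and 17765 in line 264 and between 7177 and 13284 in line 3205, against 13623 to 34155 in RAW264.7. Of 10 macrophage markers, 9 were in the table, and their summed level was 127791 to 206485 in line 264 and 194018 to 262126 in line 3205, against 361473 to 476728 in RAW264.7. Among B cell markers, Cd79b stood at 20.1 to 148 normalised reads in line 3205, against at most 6.11 in any other library. The B cell markers Ms4a1, Cd79a and Pax5 stood at no more than 3.42 in any library of any line, line 3205 included.

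The level of a Zfp member is given throughout in normalised reads, the read count divided by the authors' size factor of the library, and not per length, so levels of different genes do not rank their transcripts. The median of the 290 member means was 311.5. Chromosome 7 carried 74 members, chromosome 17 carried 37, chromosome 13 carried 32 and chromosome 8 carried 20. All 290 had a place in RefSeq on GRCm38.p6, 288 of them as protein-coding genes, and 100 overlapped another RefSeq gene. The sources used here do not give how the counting treated strand or reads shared between paralogs, so values of near-identical neighbours such as Zfp955a and Zfp955b, or Zfp874a and Zfp874b, are uncertain.

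The first comparison asked how the Zfp members changed within 60 min of LPS, and in each line more members were lower than higher. A member was called at a Benjamini-Hochberg adjusted p below 0.05 from limma over 17301 genes. In line 264, 25 members fell and 5 rose at 60 min against 0 min. In line 3205, 17 fell and 4 rose, and in RAW264.7, 33 fell and 8 rose.

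Among all genes tested, the share called lower was 0.37% in line 264, 0.277% in line 3205 and 1.32% in RAW264.7, against 8.62%, 5.86% and 11.4% of the members. The share called higher was 0.821%, 0.948% and 1.66% of all genes, against 1.72%, 1.38% and 2.76% of the members. The Zfp members thus made up 39.1% of all genes called lower in line 264, 35.4% in line 3205 and 14.5% in RAW264.7. With the replicate number as a block, 83 members fell and 11 rose in line 264, 71 fell and 9 rose in line 3205, and 90 fell and 16 rose in RAW264.7, with 1.89%, 1.66% and 4.38% of all genes called lower and 2.1%, 2.33% and 3.7% higher. By edgeR on the recovered reads the members that fell and rose numbered 27 and 5, 19 and 4, and 32 and 8, with 0.494%, 0.39% and 1.54% of all genes called lower and 1%, 1.09% and 1.91% higher. When any 1 library was left out the members called numbered 4 to 14 in line 264, 3 to 7 in line 3205 and 9 to 14 in RAW264.7, and 3, 2 and 8 calls held without any 1 of their 4 libraries.

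The shift was not limited to the called members. The median log2 fold change at 60 min was -0.36 in line 264, -0.40 in line 3205 and -0.41 in RAW264.7 over the 290 members, on the log2(normalised reads + 1) scale, against -0.0090, -0.0039 and -0.0020 over all genes. By replicate number the member medians were -0.37 and -0.41 in line 264, -0.43 and -0.31 in line 3205, and -0.43 and -0.37 in RAW264.7. Both 60 min libraries lay below both 0 min libraries for 161 members in line 264, 166 in line 3205 and 173 in RAW264.7, where the share of all genes with such ranges was 16.3%, 15% and 21.3%. Both lay above for 27, 21 and 40 members, where the share of all genes was 14.3%, 13.8% and 20.8%. The 60 min libraries were deeper than the 0 min libraries in line 264 (47763928 and 40090554 reads, against 33316317 and 37837873) and in line 3205 (48726844 and 53860392, against 34078537 and 26456023), and shallower in RAW264.7 (23113289 and 13084927, against 28579533 and 27431911). The part of depth in these falls was not tested.

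**Figure D1:**
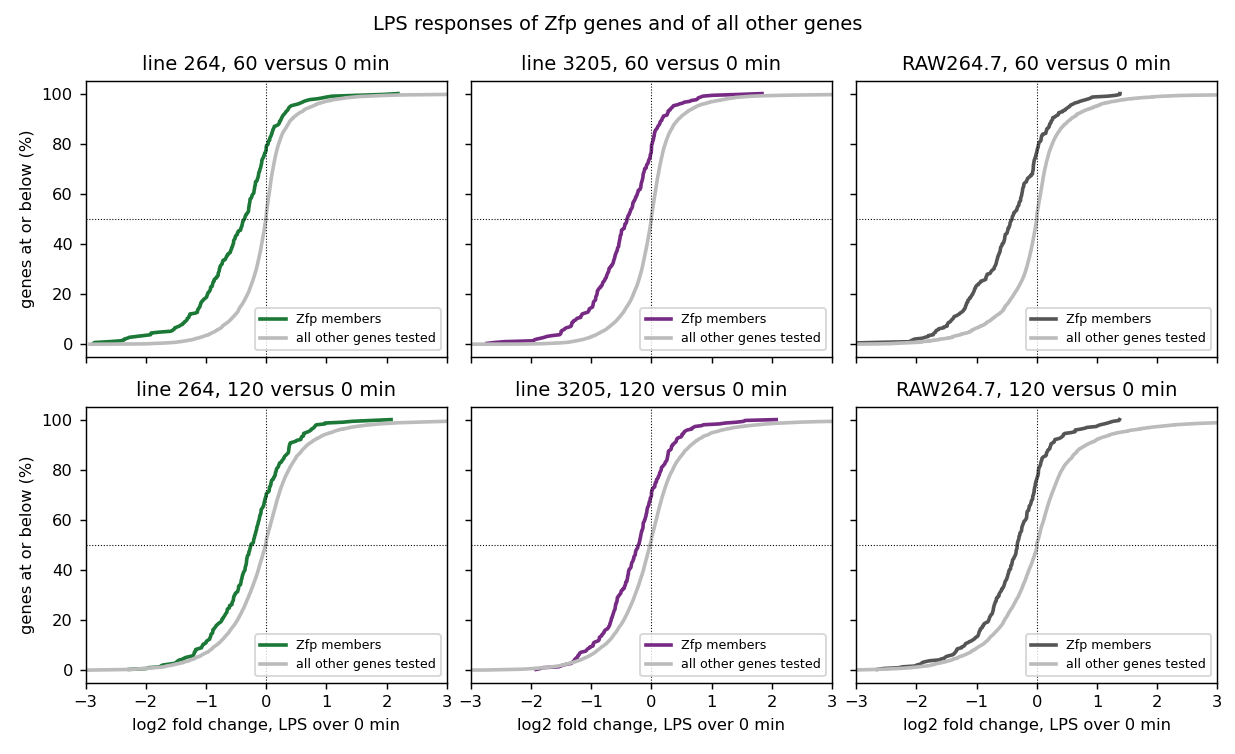
Cumulative share of genes (%) against the log2 fold change of an LPS time over 0 min, for the 290 Zfp members (coloured) and all other genes tested (grey), in 3 lines at 60 and 120 min. The member curve lies left of the grey curve in every panel, with medians of -0.36, -0.40 and -0.41 at 60 min in line 264, line 3205 and RAW264.7.

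Zfp60, a gene first described in differentiating muscle cells, fell in all 3 lines. It stood at 84.8 and 62.2 normalised reads at 60 min in line 264, against 439 and 300.1 at 0 min (log2 fold change -2.305 ± 0.25 (SE), adjusted p = 0.00125). In line 3205 it stood at 175 and 144 at 60 min, against 675 and 571 at 0 min (-1.96 ± 0.25, adjusted p = 0.00359). In RAW264.7 it stood at 156 and 129 at 60 min, against 678 and 549 at 0 min (-2.10 ± 0.25, adjusted p = 0.00159). Every 60 min library lay under every 0 min library of its line, and the calls held without any 1 library, with an adjusted p of at most 0.0176, 0.0466 and 0.0266. No other member's fall was kept in this way in all 3 lines.

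Zfp763, on chromosome 17, fell in each line. It stood at 42.4 and 31.1 normalised reads at 60 min in line 264, against 283 and 179.6 at 0 min (log2 fold change -2.60 ± 0.31 (SE), adjusted p = 0.00209), a call kept when any 1 of its 4 libraries was left out (adjusted p up to 0.0299). RAW264.7 had 47.5 and 31.7 at 60 min, against 300.5 and 241 at 0 min (-2.76 ± 0.31, adjusted p = 0.000966), a call also kept when any 1 of its 4 libraries was left out (adjusted p up to 0.0186). In line 3205 the values were 88.6 and 85.4 at 60 min, against 312 and 274 at 0 min (-1.74 ± 0.31, adjusted p = 0.0259), and that call was lost when any 1 of its 4 libraries was left out (adjusted p 0.0888 to 0.207) and without the filter on low values (adjusted p = 0.0504). The groups did not overlap in any line.

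In RAW264.7, 3 more members fell with calls that held without any 1 library. Zfp324 had 199 and 114 normalised reads at 60 min, against 659.8 and 628 at 0 min (log2 fold change -2.09 ± 0.23 (SE), adjusted p = 0.000928). Zfp61 had 71.3 and 81.8 at 60 min, against 295 and 264 at 0 min (-1.86 ± 0.21, adjusted p = 0.00107), and Zfp12, whose human counterpart is a repressor, had 221 and 174, against 654 and 609 (-1.68 ± 0.22, adjusted p = 0.00278). The 60 min libraries of these 3 genes were all below the 0 min libraries in RAW264.7. In line 264, Zfp61 fell by 1.28 on the log2 scale (adjusted p = 0.0172), a call lost without the line 264 0 min replicate 1 library (adjusted p = 0.167), the line 264 60 min replicate 1 library (adjusted p = 0.155) or the line 264 60 min replicate 2 library (adjusted p = 0.0594). In line 3205 it fell by 1.503 (adjusted p = 0.00616), a call lost without the line 3205 0 min replicate 1 library (adjusted p = 0.0585), the line 3205 60 min replicate 1 library (adjusted p = 0.0706) or the line 3205 60 min replicate 2 library (adjusted p = 0.0662). Zfp12 passed in both edited lines as well. It fell by 1.39 in line 264 (adjusted p = 0.0136), a call lost when any 1 of its 4 libraries was left out (adjusted p 0.0619 to 0.136). In line 3205 it fell by 1.45 (adjusted p = 0.0106), a call lost without the line 3205 0 min replicate 1 library (adjusted p = 0.0597), the line 3205 60 min replicate 1 library (adjusted p = 0.0844) or the line 3205 60 min replicate 2 library (adjusted p = 0.104). Zfp324 fell in line 3205 (-1.29 ± 0.23, adjusted p = 0.027), a call lost when any 1 of its 4 libraries was left out (adjusted p 0.118 to 0.236), and did not pass in line 264 (-0.99 ± 0.23, adjusted p = 0.0998, and 0.0293 with the replicate block).

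Zfp157 fell in each line. It had 104 and 67.4 normalised reads at 60 min in line 264, against 378 and 272 at 0 min (log2 fold change -1.92 ± 0.27 (SE), adjusted p = 0.00717), a call lost without the line 264 0 min replicate 1 library (adjusted p = 0.0749) or the line 264 60 min replicate 2 library (adjusted p = 0.0692). It had 205 and 147 at 60 min in line 3205, against 727 and 586 at 0 min (-1.90 ± 0.27, adjusted p = 0.0074), a call lost without the line 3205 0 min replicate 1 library (adjusted p = 0.0771) or the line 3205 60 min replicate 2 library (adjusted p = 0.09). In RAW264.7 it had 117 and 135 at 60 min, against 420.2 and 383 at 0 min (-1.67 ± 0.27, adjusted p = 0.00979), a call lost when any 1 of its 4 libraries was left out (adjusted p 0.0636 to 0.0962). The same 12 members fell in all 3 lines, out of 45 that fell in any line: Zfp12, Zfp157, Zfp319, Zfp39, Zfp398, Zfp40, Zfp60, Zfp61, Zfp623, Zfp759, Zfp763 and Zfp955a. Line 264 and RAW264.7 shared 15 falls, which were 60.0% of those in line 264 and 45.5% of those in RAW264.7. Line 3205 and RAW264.7 shared 13, which were 76.5% and 39.4% of their falls. Lines 264 and 3205 shared 14, which were 56.0% and 82.4%. These lists of shared falls were drawn up after the values were seen. Sharing over all genes was not counted, for falls or rises at either time, so counts of shared calls are not a result about the members.

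The other members with the largest falls at 60 min were less stable. In line 264, on the log2 scale, Zfp85 by 2.41, Zfp772 by 2.03, Zfp759 by 1.91, Zfp39 by 1.55, Zfp870 by 1.52 were lower. In line 3205 the same scale gave Zfp759 by 1.95, Zfp39 by 1.84, Zfp40 by 1.42, and in RAW264.7 Zfp551 by 1.80, Zfp94 by 1.72, Zfp773 by 1.72. Each of these 11 calls was lost without at least 1 of its 4 libraries, with the highest adjusted p between 0.181 and 0.381. Zfp759, in the chromosome 13 cluster, had 57.0 and 44.1 normalised reads at 60 min in line 264, against 254 and 145 at 0 min, and 66.1 and 65.5 in line 3205, against 306 and 215. The ranges of Zfp759 were apart in both lines. Without the filter on low values the calls of Zfp85, Zfp772 and Zfp759 in line 264, Zfp759 and Zfp40 in line 3205 and Zfp551 and Zfp94 in RAW264.7 were lost (adjusted p 0.0518 to 0.0961). The call of Zfp39 in line 264 was lost with a pseudocount of 5 (adjusted p = 0.0522). In RAW264.7 that of Zfp551 was lost by edgeR (adjusted p = 0.0548), and those of Zfp551 and Zfp773 with all 18 libraries in 1 fit (adjusted p = 0.0501 and 0.0721).

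Fewer members rose by 60 min, and 3 of them, Zfp622, Zfp703 and Zfp719, rose in all 3 lines, out of 8 that rose in any. Zfp703, a transcriptional cofactor whose human counterpart is amplified in breast cancer, had 1175 and 1342 normalised reads at 60 min in line 264, against 488 and 385 at 0 min (log2 fold change 1.53 ± 0.18 (SE), adjusted p = 0.00185), a call kept when any 1 of its 4 libraries was left out (adjusted p up to 0.031). It had 740.1 and 699 at 60 min in line 3205, against 411 and 307 at 0 min (1.02 ± 0.18, adjusted p = 0.0241), a call lost without the line 3205 0 min replicate 2 library (adjusted p = 0.11), the line 3205 60 min replicate 1 library (adjusted p = 0.204) or the line 3205 60 min replicate 2 library (adjusted p = 0.15). RAW264.7 had 895 and 884, against 508 and 447 (0.90 ± 0.18, adjusted p = 0.0258), a call lost when any 1 of its 4 libraries was left out (adjusted p 0.101 to 0.22). All 60 min libraries of Zfp703 stood above the 0 min libraries of their line.

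Zfp719 had 1579 and 1489 normalised reads at 60 min in RAW264.7, against 580.3 and 595 at 0 min (log2 fold change 1.38 ± 0.15 (SE), adjusted p = 0.000928), a call kept when any 1 of its 4 libraries was left out (adjusted p up to 0.0164). Its values were 1198 and 951 at 60 min in line 264, against 539 and 463 at 0 min (1.09 ± 0.15, adjusted p = 0.00653), a call lost without the line 264 0 min replicate 2 library (adjusted p = 0.054) or the line 264 60 min replicate 1 library (adjusted p = 0.0711). In line 3205 they were 1183 and 984 at 60 min, against 646 and 613 at 0 min (0.78 ± 0.15, adjusted p = 0.0455), a call lost when any 1 of its 4 libraries was left out (adjusted p 0.112 to 0.384), without the filter on low values (adjusted p = 0.0611) and with all 18 libraries in 1 fit (adjusted p = 0.0611). The groups were apart in each line.

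Zfp622, a cofactor of large ribosomal subunit maturation, rose by 0.67 on the log2 scale in line 264, by 0.63 in line 3205 and by 0.76 in RAW264.7 (adjusted p = 0.0225, 0.0298 and 0.00613). It stood at 2958 and 3229 normalised reads at 60 min in line 264, against 1787 and 2109 at 0 min. It stood at 4813 and 4508 at 60 min in line 3205, against 3018 and 2983 at 0 min, and at 2499.8 and 2769.6 in RAW264.7, against 1587 and 1511. Each of these calls was lost without at least 1 library: the line 264 call was lost without the line 264 0 min replicate 1 library (adjusted p = 0.189), the line 264 60 min replicate 1 library (adjusted p = 0.0904) or the line 264 60 min replicate 2 library (adjusted p = 0.221), the line 3205 call was lost when any 1 of its 4 libraries was left out (adjusted p 0.106 to 0.275) and the RAW264.7 call was lost without the RAW264.7 0 min replicate 2 library (adjusted p = 0.0769) or the RAW264.7 60 min replicate 2 library (adjusted p = 0.0836). With all 18 libraries in 1 fit the line 264 and line 3205 calls were lost (adjusted p = 0.0662 and 0.0892).

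Zfp263, a SCAN and KRAB zinc finger protein, rose in line 3205 and RAW264.7. It had 2305 and 2412 normalised reads at 60 min in line 3205, against 1302 and 1306 at 0 min (log2 fold change 0.85 ± 0.10 (SE), adjusted p = 0.00252), and 4807 and 4335 at 60 min in RAW264.7, against 2089 and 1935 at 0 min (1.18 ± 0.10, adjusted p = 0.000201). Both calls held without any 1 library, with an adjusted p of at most 0.0401 and 0.00528. In line 264 the values were 1243 and 1297 at 60 min, against 1027 and 1077 at 0 min, and did not pass (0.27 ± 0.10, adjusted p = 0.493). Zfp948 had 1439.9 and 1486 at 60 min in RAW264.7, against 588 and 589 at 0 min (1.31 ± 0.18, adjusted p = 0.00339), a call kept when any 1 of its 4 libraries was left out (adjusted p up to 0.0446). It also rose in line 264 (1.002 ± 0.18, adjusted p = 0.0267), a call lost without the line 264 0 min replicate 1 library (adjusted p = 0.222), the line 264 60 min replicate 1 library (adjusted p = 0.0925) or the line 264 60 min replicate 2 library (adjusted p = 0.251), and without the filter on low values (adjusted p = 0.0606). In line 3205 it did not pass (0.75 ± 0.18, adjusted p = 0.116, and 0.00635 with the replicate block).

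**Figure D2:**
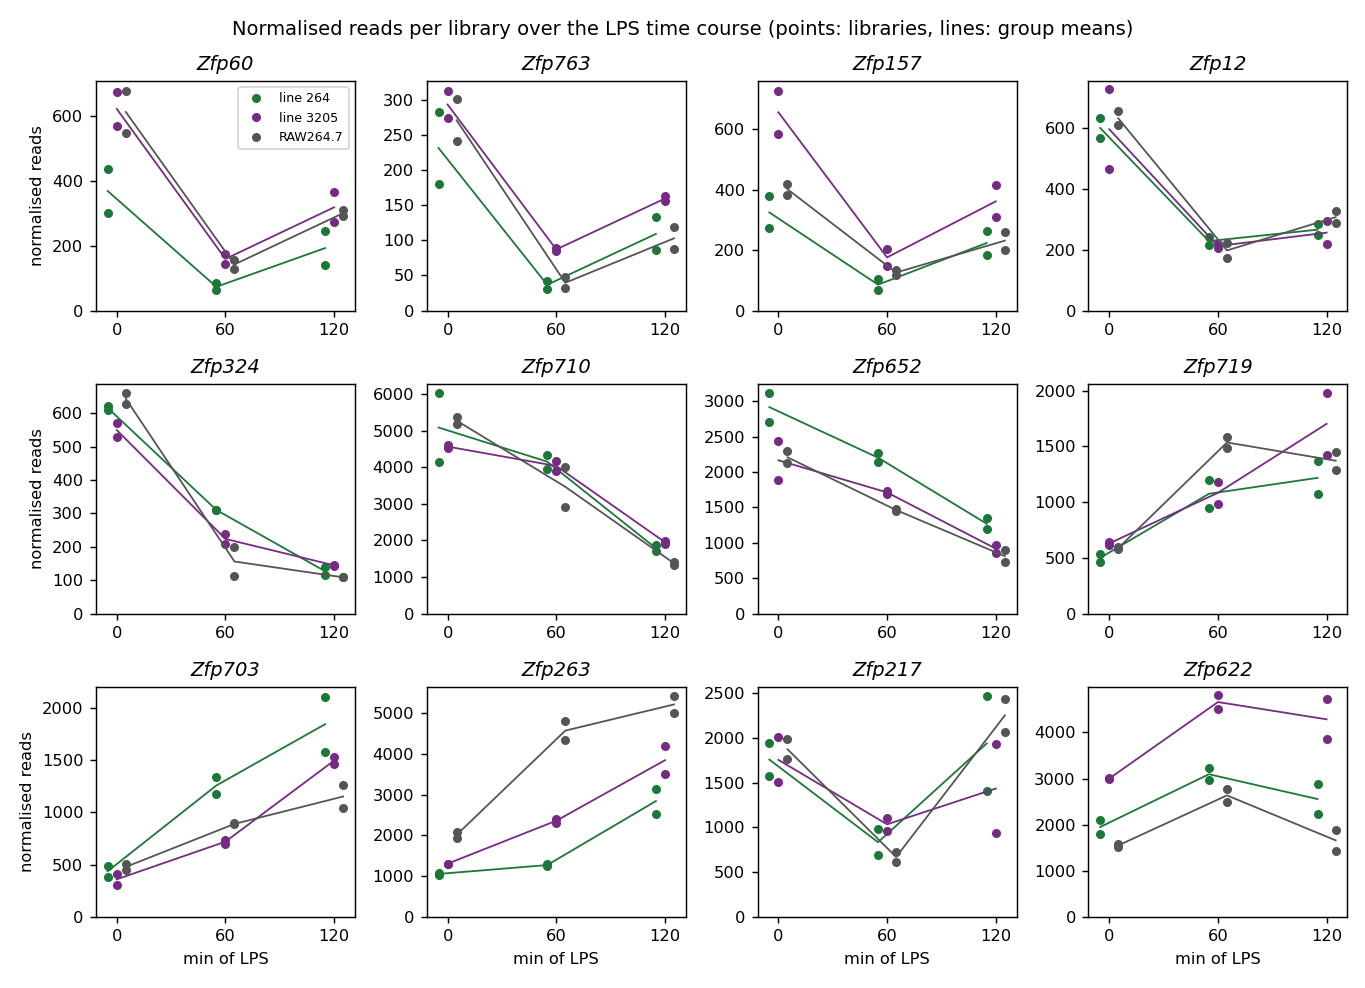
Normalised reads of 12 Zfp members at 0, 60 and 120 min of LPS (x axis, min) in line 264, line 3205 and RAW264.7. Points are single libraries and lines join group means; Zfp60, Zfp763 and Zfp157 are lowest at 60 min in every line, Zfp324, Zfp710 and Zfp652 are lowest at 120 min, and Zfp703 and Zfp719 stand above their 0 min level at both times.

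The promoters of 5 of these genes are shown because each had a 60 min call that held without any 1 library in at least 1 line: Zfp60, Zfp763 and Zfp324 fell, and Zfp719 and Zfp263 rose. They were chosen from the members of this kind after their values were seen. Each sequence is RefSeq's for GRCm38.p6, 300 bases written 5′ to 3′ on the gene's strand, from 250 bases before the start to 50 after it. Capitals mark the ETS letters CCGGAAG, or CTTCCGG on the other strand.
Zfp60 (chr7:27731159-27731458, plus strand): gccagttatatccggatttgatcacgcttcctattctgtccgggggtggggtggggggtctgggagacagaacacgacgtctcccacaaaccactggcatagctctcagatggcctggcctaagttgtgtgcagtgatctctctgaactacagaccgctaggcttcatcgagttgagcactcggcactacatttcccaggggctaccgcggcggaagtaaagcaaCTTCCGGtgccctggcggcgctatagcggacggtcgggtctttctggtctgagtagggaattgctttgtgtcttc
Zfp324 (chr7:12965588-12965887, plus strand): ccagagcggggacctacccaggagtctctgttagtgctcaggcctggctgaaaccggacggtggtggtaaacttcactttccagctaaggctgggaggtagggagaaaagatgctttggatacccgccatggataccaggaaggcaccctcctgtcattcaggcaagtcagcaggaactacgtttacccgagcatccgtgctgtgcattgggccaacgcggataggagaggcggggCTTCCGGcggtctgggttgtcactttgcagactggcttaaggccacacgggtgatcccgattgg
Zfp763 (chr17:33033332-33033631, minus strand): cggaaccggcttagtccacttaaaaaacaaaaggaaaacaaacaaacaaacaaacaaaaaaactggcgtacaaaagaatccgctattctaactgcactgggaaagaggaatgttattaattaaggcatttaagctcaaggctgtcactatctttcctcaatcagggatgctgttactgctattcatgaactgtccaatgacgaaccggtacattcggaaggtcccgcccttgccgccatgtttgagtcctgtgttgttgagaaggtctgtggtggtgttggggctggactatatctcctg
Zfp263 (chr16:3743849-3744148, plus strand): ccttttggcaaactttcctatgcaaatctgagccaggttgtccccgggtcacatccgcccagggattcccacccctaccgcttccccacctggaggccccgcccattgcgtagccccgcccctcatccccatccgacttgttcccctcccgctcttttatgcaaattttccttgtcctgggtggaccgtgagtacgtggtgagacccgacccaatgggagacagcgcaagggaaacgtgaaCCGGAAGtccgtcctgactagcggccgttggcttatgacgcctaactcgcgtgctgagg
Zfp719 (chr7:43579336-43579635, plus strand): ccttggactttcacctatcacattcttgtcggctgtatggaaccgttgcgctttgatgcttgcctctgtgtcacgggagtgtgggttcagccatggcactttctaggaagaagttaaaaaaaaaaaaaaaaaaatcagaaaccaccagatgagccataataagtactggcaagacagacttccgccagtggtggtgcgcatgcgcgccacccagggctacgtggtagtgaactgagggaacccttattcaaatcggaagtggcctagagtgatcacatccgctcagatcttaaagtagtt

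The ETS letters, searched on both strands, stood in the promoters of Zfp60, Zfp324 and Zfp263 and not in those shown for Zfp763 and Zfp719. Of the 243 members with a RefSeq promoter, 51 (21.0%) held these letters, against 9.08% of all 27025 promoters of the same length. Members that fell at 60 min in any line held them in 9 of 37 promoters (24.3%), and members not called lower in 42 of 206 (20.4%), so the share was close for both. Member promoters had a median of 16 CG dinucleotides and 55.7% G and C, against 7 and 52.7% over all promoters. The TATA letters TATAAA stood in 6.17% of member promoters and 14.1% of all, and the cAMP element TGACGTCA in 4.94% and 1.78%. All were searched on both strands, and none of these motifs contains another. A match is a description of the letters in the window.

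The members that fell by 60 min were mostly of middle level. Of the 132 members with a mean of 100 to 500 normalised reads, 18 fell in line 264 (13.6%), 14 in line 3205 (10.6%) and 26 in RAW264.7 (19.7%). Of the 2191 other genes in that range, 0.685%, 0.502% and 3.06% fell. The 59 members with a mean of 10 to 100 held 4, 2 and 3 falls, where 0.0373%, 0.0373% and 0.373% of the other genes of that range fell. The 99 members at 500 or more held 3, 1 and 4, where 0.283%, 0.234% and 1.33% of the other genes fell. The median log2 fold change was -0.73, -0.61 and -1.01 over the members of the lowest range, -0.58, -0.58 and -0.54 over those of the middle range, and -0.09, -0.03 and -0.04 over those at 500 or more. The members called higher at 60 min, 5 in line 264, 4 in line 3205 and 8 in RAW264.7, all had a mean of at least 500. Calls in the lowest range rest on few reads, so its counts cannot be set against those of the others.

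**Figure D3:**
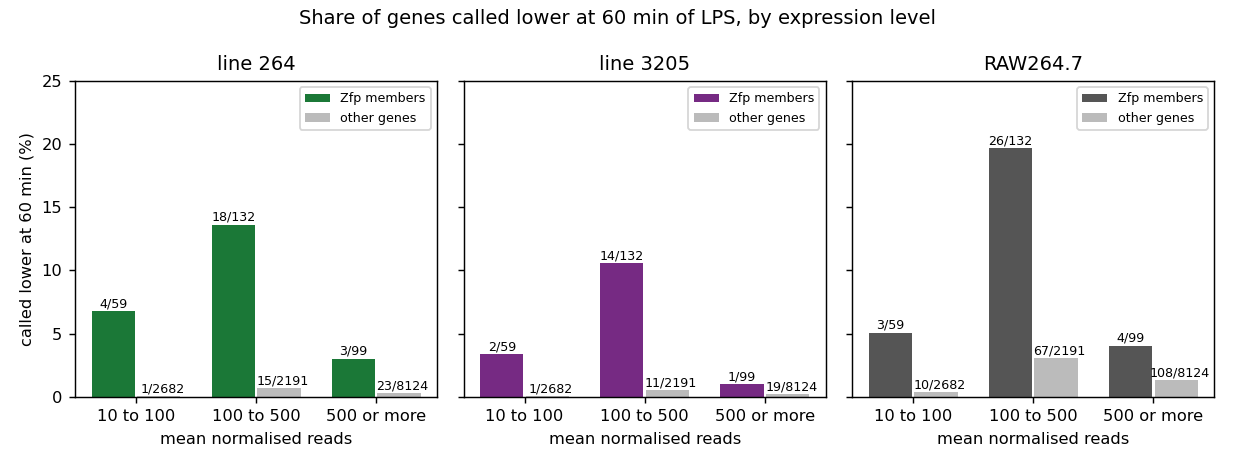
Share of genes called lower at 60 min of LPS against 0 min (%, bars from 0), for Zfp members and other genes in 3 ranges of mean normalised reads, by line; the numbers on the bars are the genes called and tested. In the 100 to 500 range 13.6%, 10.6% and 19.7% of the members were called lower in line 264, line 3205 and RAW264.7.

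The median fall at 60 min was deeper over members that lie close together on a chromosome than over those that lie alone, a difference that was not tested. The groups were not matched for expression level, over which the median fall also varied, as given above. The part of level in this difference was not tested. With neighbours at most 500 kb apart joined, 138 members lay in 16 clusters of at least 4, 50 in 20 clusters of 2 or 3, and 102 alone. The median log2 fold change at 60 min over the members of large clusters was -0.66 in line 264, -0.59 in line 3205 and -0.53 in RAW264.7. It was -0.28, -0.43 and -0.34 over the small clusters, and -0.13, -0.16 and -0.21 over the members that lay alone. The falls called numbered 15, 11 and 18 in large clusters, 4, 4 and 9 in small ones, and 6, 2 and 6 alone. These medians are descriptions, since genes of 1 cluster share sequence and cannot count as separate observations.

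The cluster at chr17:32765496-33631716 holds 13 members, among them Zfp763, Zfp870, Zfp472 and Zfp955a. All 13 were below their 0 min level at 60 min in every line, with median log2 fold changes of -1.14 in line 264, -0.77 in line 3205 and -0.93 in RAW264.7, and 4, 2 and 4 of them called. The 9 members at chr6:47815536-48621548 were also all below 0 in every line, with medians of -0.77, -0.66 and -1.02. The 7 members at chr7:12412549-12985717, where Zfp324 lies, had medians of -1.18, -1.05 and -1.18. The largest cluster, 20 members at chr13:67038594-67827000, had 18, 17 and 16 members below 0 and medians of -0.81, -0.57 and -0.55. By contrast the 12 members at chr7:29768552-30169775, with Zfp568 and Zfp382, had medians of -0.29, -0.14 and -0.31. These clusters were chosen for naming after their values were seen.

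**Figure D4:**
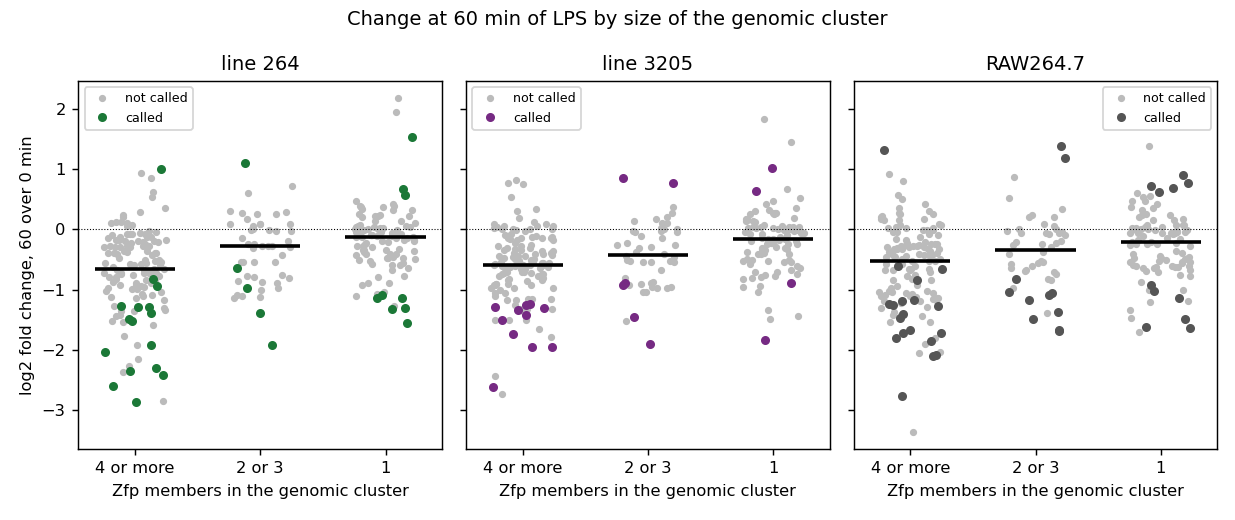
Log2 fold change at 60 min of LPS over 0 min (y axis) of the 290 Zfp members by the size of their cluster (4 or more, 2 or 3, or 1 member within 500 kb), in 3 lines. Each point is a gene, coloured where called, and black bars are medians, which run from -0.66 in line 264 for large clusters to -0.13 for genes that lie alone.

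At 120 min of LPS, the second comparison against 0 min, more members fell than rose in each line, at a share nearer to that of all genes. In line 264, 17 members fell and 6 rose against 0 min. In line 3205, 15 fell and 5 rose, and in RAW264.7, 36 fell and 7 rose. The share called lower among all 17450 genes was 2.55%, 2.14% and 5.52%, against 5.86%, 5.17% and 12.4% of the members. The share called higher was 2.88%, 2.89% and 5.08% of all genes, against 2.07%, 1.72% and 2.41% of the members. Members made up 3.82%, 4.02% and 3.74% of all genes called lower. The median log2 fold change of the members was -0.25, -0.21 and -0.32, with 200, 201 and 220 of the 290 below 0.

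With the replicate block, 66 members fell and 26 rose in line 264, 54 and 21 in line 3205, and 93 and 21 in RAW264.7, where 8.61%, 7.12% and 12.4% of all genes fell and 7.77%, 7.18% and 11.3% rose. By edgeR 19 fell and 6 rose, 17 and 5, and 43 and 7, where 3.63%, 2.62% and 7.37% of all genes fell and 3.5%, 3.82% and 5.59% rose. The 2 libraries at 120 min lay below both 0 min libraries for 113, 117 and 159 members (22.8%, 21.3% and 27.8% of all genes) and above them for 43, 37 and 33 (21.3%, 18.4% and 27.1% of all genes). The members called numbered 8 to 14, 8 to 12 and 14 to 21 when 1 library was left out, and 8, 7 and 9 calls held without any 1 of their libraries. This comparison and the one at 60 min share their 0 min libraries, so their values are set side by side without a measure of likeness.

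Zfp324 was lower at 120 min than at 0 min in each line. It had 139 and 115 normalised reads at 120 min in line 264, against 611 and 622 at 0 min (log2 fold change -2.27 ± 0.18 (SE), adjusted p = 9.05e-05). Line 3205 had 144 and 146, against 528 and 571 (-1.92 ± 0.18, adjusted p = 0.000223), and RAW264.7 had 109 and 109, against 659.8 and 628 (-2.55 ± 0.18, adjusted p = 3.2e-05). The groups were apart in every line and the calls held without any 1 library, with an adjusted p of at most 0.00335.

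Zfp710 and Zfp652, whose human counterpart is a partner of the corepressor CBFA2T3, were the most highly counted of the stable falls at 120 min. Zfp710 had 1878 and 1699 normalised reads at 120 min in line 264, against 4133 and 6032 at 0 min (log2 fold change -1.48 ± 0.16 (SE), adjusted p = 0.000728). It had 1988 and 1915 in line 3205, against 4525 and 4599 (-1.22 ± 0.16, adjusted p = 0.00237), and 1412 and 1341 in RAW264.7, against 5357 and 5184 (-1.94 ± 0.16, adjusted p = 9.14e-05). At 60 min its log2 fold change in RAW264.7 had been -0.62 ± 0.19, adjusted p = 0.143, short of a call. Zfp652 had 1191 and 1348 at 120 min in line 264, against 3121 and 2711 at 0 min (-1.20 ± 0.17, adjusted p = 0.00326), 861 and 976 in line 3205, against 2442 and 1889 (-1.23 ± 0.17, adjusted p = 0.00299), and 726 and 899 in RAW264.7, against 2125 and 2291 (-1.45 ± 0.17, adjusted p = 0.000703). These calls held without any 1 library (adjusted p up to 0.0366), and 120 min libraries were all below 0 min libraries.

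The same 11 members fell in all 3 lines at 120 min, out of 38 that fell in any: Zfp12, Zfp219, Zfp251, Zfp324, Zfp362, Zfp398, Zfp40, Zfp652, Zfp710, Zfp839 and Zfp942. Line 264 and RAW264.7 shared 17 falls (100% of line 264's and 47.2% of RAW264.7's), line 3205 and RAW264.7 shared 13 (86.7% and 36.1%), and lines 264 and 3205 shared 11 (64.7% and 73.3%). Zfp219, a SOX9 cofactor in mouse cartilage, had log2 fold changes of -1.21 in line 264, -1.02 in line 3205 and -1.33 in RAW264.7 (adjusted p = 0.00377, 0.0103 and 0.00153). Its line 3205 call was lost without the line 3205 0 min replicate 2 library (adjusted p = 0.0522), the line 3205 120 min replicate 1 library (adjusted p = 0.0776) or the line 3205 120 min replicate 2 library (adjusted p = 0.0548). Zfp362 fell by 1.19, 1.25 and 1.85 on the log2 scale. In line 264 its call was lost without the line 264 0 min replicate 1 library (adjusted p = 0.103), the line 264 0 min replicate 2 library (adjusted p = 0.0617) or the line 264 120 min replicate 1 library (adjusted p = 0.105). In line 3205 it was lost without the line 3205 0 min replicate 1 library (adjusted p = 0.0818) or the line 3205 120 min replicate 1 library (adjusted p = 0.0925).

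Zfp703, Zfp719, Zfp263 and Zfp330 rose in all 3 lines at 120 min, out of 10 members that rose in any. Zfp703 had 1581 and 2109 normalised reads at 120 min in line 264, against 488 and 385 at 0 min (log2 fold change 2.07 ± 0.21 (SE), adjusted p = 0.000423). Line 3205 had 1460.0 and 1533, against 411 and 307 (2.07 ± 0.21, adjusted p = 0.000437), and RAW264.7 had 1042 and 1264, against 508 and 447 (1.27 ± 0.21, adjusted p = 0.00457), a call lost without the RAW264.7 0 min replicate 2 library (adjusted p = 0.0522). Every 120 min library stood above its line's 0 min libraries.

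Zfp263 had 2535 and 3146 normalised reads at 120 min in line 264, against 1027 and 1077 at 0 min (log2 fold change 1.42 ± 0.14 (SE), adjusted p = 0.000381). It had 3494 and 4194 in line 3205, against 1302 and 1306 (1.55 ± 0.14, adjusted p = 0.000223), and 5012 and 5417 in RAW264.7, against 2089 and 1935 (1.37 ± 0.14, adjusted p = 0.000329). Zfp719 rose by 1.27, 1.41 and 1.22 on the log2 scale. The calls of Zfp263 and Zfp719 held without any 1 library in each line. Zfp330 rose by 0.78, 0.54 and 0.64 (adjusted p = 0.00505, 0.0337 and 0.00879), calls that were each lost without at least 1 library.

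In RAW264.7 Zfp472, of the chromosome 17 cluster, had a stable fall at 120 min. It had 286 and 285 normalised reads at 120 min there, against 687 and 626 at 0 min (log2 fold change -1.20 ± 0.15 (SE), adjusted p = 0.000855), a call kept when any 1 of its 4 libraries was left out (adjusted p up to 0.0153). Its values were 379 and 373 at 120 min in line 264, against 471 and 449 at 0 min, and 637 and 565 in line 3205, against 682 and 703, and neither passed (adjusted p = 0.339 and 0.584). Zfp472 was chosen for naming after its values were seen. Zfp839 fell in line 264, where it had 175 and 146 at 120 min, against 365 and 443 at 0 min (-1.33 ± 0.20, adjusted p = 0.00395), a call kept when any 1 of its 4 libraries was left out (adjusted p up to 0.0349). Zfp40 fell in line 3205, where it had 126 and 117, against 378 and 332 (-1.54 ± 0.23, adjusted p = 0.00444), a call kept when any 1 of its 4 libraries was left out (adjusted p up to 0.0418). Zfp503, a corepressor of the same NET family as Zfp703, fell in RAW264.7, where it had 29.3 and 42.9, against 146 and 125 (-1.90 ± 0.34, adjusted p = 0.00704), a call lost without the RAW264.7 0 min replicate 1 library (adjusted p = 0.0663) or the RAW264.7 120 min replicate 1 library (adjusted p = 0.0677).

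A comparison of 120 with 60 min, added after the data were seen, gave the last step of the time course. Members rose more often than they fell in line 264 (18 and 6) and line 3205 (9 and 5), whereas in RAW264.7 12 rose and 16 fell. Among all 17367 genes 1.15%, 1.09% and 3.42% rose and 1.14%, 1.19% and 3.88% fell, so the members' 6.21% that rose in line 264 stood furthest from its background. With the block the members that rose and fell numbered 53 and 10, 36 and 9, and 44 and 33, where 3.66%, 3.07% and 8.75% of all genes rose and 4.26%, 3.89% and 9.75% fell. The median log2 fold change of the members was 0.17, 0.15 and 0.07. Leaving out 1 library gave 3 to 11 calls in line 264, 0 to 5 in line 3205 and 7 to 13 in RAW264.7. The comparison shares its libraries with both earlier ones.

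Zfp60 had 245 and 141 normalised reads at 120 min in line 264, against 84.8 and 62.2 at 60 min (log2 fold change 1.34 ± 0.29 (SE), adjusted p = 0.0272), a call lost without the line 264 60 min replicate 1 library (adjusted p = 0.0807), the line 264 60 min replicate 2 library (adjusted p = 0.23) or the line 264 120 min replicate 1 library (adjusted p = 0.265). In RAW264.7 it had 292 and 311 at 120 min, against 156 and 129 at 60 min (1.08 ± 0.29, adjusted p = 0.0377), a call lost when any 1 of its 4 libraries was left out (adjusted p 0.0957 to 0.222). The values of line 3205 were 365 and 273, against 175 and 144, and did not pass (0.99 ± 0.29, adjusted p = 0.114, and 0.00394 with the replicate block). At 120 min Zfp60 was still below its 0 min libraries, with log2 fold changes of -0.96, -0.97 and -1.02 that did not pass (adjusted p = 0.104, 0.106 and 0.0572). With the replicate block these had an adjusted p of 0.00768, 0.008 and 0.00384.

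Zfp217, whose human counterpart is an oncogene that works with the CoREST and LSD1 corepressors, was at its lowest at 60 min in RAW264.7. There it had 1987 and 1763 normalised reads at 0 min, 729 and 609.9 at 60 min and 2437 and 2069 at 120 min. Its fall by 60 min passed there (log2 fold change -1.49 ± 0.21 (SE), adjusted p = 0.0041), a call lost without the RAW264.7 60 min replicate 2 library (adjusted p = 0.0567). Its rise between 60 and 120 min passed as well (1.75 ± 0.33, adjusted p = 0.00587), a call lost without the RAW264.7 60 min replicate 2 library (adjusted p = 0.0618) or the RAW264.7 120 min replicate 1 library (adjusted p = 0.0593). In line 264 it had 982 and 687 at 60 min, against 1948 and 1571 at 0 min (-1.09 ± 0.21, adjusted p = 0.0403), a call lost without the line 264 0 min replicate 1 library (adjusted p = 0.307), the line 264 0 min replicate 2 library (adjusted p = 0.0774) or the line 264 60 min replicate 2 library (adjusted p = 0.331), also lost without the filter on low values (adjusted p = 0.108) and with all 18 libraries in 1 fit (adjusted p = 0.195). In line 3205 the fall did not pass (-0.75 ± 0.21, adjusted p = 0.208, and 0.00256 with the replicate block).

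Zfp710, which had not passed at 60 min against 0 min, fell between 60 and 120 min in line 264, line 3205 and RAW264.7 by 1.21, 1.05 and 1.31 on the log2 scale (adjusted p = 0.00227, 0.0059 and 0.000667), and its line 3205 call was lost without the line 3205 60 min replicate 1 library (adjusted p = 0.0753) or the line 3205 120 min replicate 1 library (adjusted p = 0.053). Zfp263, which had not passed at 60 min in line 264, rose there between 60 and 120 min. It had 2535 and 3146 normalised reads at 120 min, against 1243 and 1297 at 60 min (1.15 ± 0.12, adjusted p = 0.000428), a call kept when any 1 of its 4 libraries was left out (adjusted p up to 0.00911). Zfp382 rose in RAW264.7, to 503 and 627 at 120 min, against 245 and 206 at 60 min (1.32 ± 0.22, adjusted p = 0.00338), a call kept when any 1 of its 4 libraries was left out (adjusted p up to 0.0426).

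The third comparison asked whether the LPS response of a member differed between an edited line and RAW264.7. By limma 0 members passed in line 264 or line 3205 at either time, where 0.0173% and 0.00578% of all genes passed at 60 min and 0.0229% and 0.00573% at 120 min. An unadjusted p below 0.05 was reached by 10 and 10 members at 60 min and 9 and 13 at 120 min in line 264 and line 3205. By edgeR 0 passed as well, with 8 and 14 members at 60 min and 7 and 15 at 120 min under an unadjusted 0.05, where 0.0279% and 0.00696% of all genes passed with adjustment at 60 min and 0.014% and 0.021% at 120 min. The share of all genes under an unadjusted 0.05 was not counted, so the unadjusted counts are not a result about the members. With the replicate block 1 member passed in line 264 at 60 min (Zfp263) and 2 in line 3205 at 120 min (Zfp472 and Zfp275), where 0.127% and 0.682% of all genes passed. Counts this small are not a result about the members. The middle 50% of the members differed in response from RAW264.7 by -0.22 to 0.16 on the log2 scale in line 264 and by -0.24 to 0.23 in line 3205 at 60 min. At 120 min it differed by -0.12 to 0.30 in line 264 and by -0.09 to 0.30 in line 3205. The median difference at 120 min was 0.11 and 0.10 over the members, against 0.0011 and -0.0029 over all genes. There 178 and 187 of the 290 members lay above 0 by limma. Both lines were set against the same RAW264.7 libraries, and this shift was not tested. With 2 libraries a group these comparisons do not show that the responses were alike.

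The fourth comparison set the edited lines against RAW264.7 at the same time of LPS, with RAW264.7 shared by both. At 0 min 9 members were higher and 19 lower in line 264, and 17 higher and 14 lower in line 3205. At 60 min the counts were 13 and 37 in line 264 and 23 and 23 in line 3205, and at 120 min 18 and 14, and 27 and 15. The share of all genes called higher at 0 min was 7.61% in line 264 and 8.42% in line 3205, and the share called lower was 5.57% and 5.89%. At 60 min the shares higher and lower were 8.46% and 6.8%, and 8.95% and 6.46%, and at 120 min 7.33% and 6.13%, and 7.94% and 5.99%. By limma without the block, 12.8% of the members were lower in line 264 at 60 min, against 6.8% of all genes. The members' other shares by that fit lay near or below those of all genes. All counts of this comparison, with the block or without it, include 8 members with a mean below 10 over the edited libraries of the 60 min table. They also include 2 with such a mean over its RAW264.7 libraries. Differences of these members were bound to follow from the minimum level, as the next paragraph states. None of these counts is therefore a result about the members. With the block the members higher and lower were 16 and 46, 24 and 71, and 34 and 39 in line 264 at 0, 60 and 120 min, and 40 and 29, 48 and 43, and 62 and 33 in line 3205. The block called 12.7%, 14.3% and 13.5% of all genes higher and 10.6%, 12.6% and 11.8% lower in line 264, and 14.4%, 15.5% and 14.7% higher and 12.1%, 12.4% and 12.6% lower in line 3205. Of the members, it called 5.52%, 8.28% and 11.7% higher and 15.9%, 24.5% and 13.4% lower in line 264. In line 3205 it called 13.8%, 16.6% and 21.4% of them higher and 10%, 14.8% and 11.4% lower. Of the 9 macrophage markers, Cd14, Csf1r, Lyz2, Cd68 and Spi1 lay lower at 0 min in every library of both edited lines than in RAW264.7. Fcgr1 lay higher in both, at 5664 to 7839 normalised reads, against 2753 and 3320 in RAW264.7. Tlr4 lay higher in line 3205 (4705 and 4814) and lower in line 264 (1938 and 1968), against 3660 and 3904, so the summed level given above, in which Lyz2 and Csf1r had the most reads, does not stand for each marker. The part of these markers in the members' differences was not tested.

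Some members had 0 or few reads in some lines and many more in others. Zfp334 had 0 reads at 0 min in both edited lines, against 129.6 and 75.3 normalised reads in RAW264.7. Zfp449 also had 0 reads in both, against 96.9 and 109 in RAW264.7. At 120 min both genes still had 0 reads in the edited lines, against 148 and 89.6 for Zfp334 and 51.9 and 54.3 for Zfp449 in RAW264.7. The mean over the 8 edited libraries of the 60 min table was below 10 for 8 members (Zfp273, Zfp334, Zfp354a, Zfp395, Zfp449, Zfp462, Zfp647 and Zfp964), and the mean over its 4 RAW264.7 libraries was below 10 for 2 (Zfp184 and Zfp618). These met the minimum level through the lines where they were high, so a difference of that direction was bound to follow from their place among the members. Where these members are named for a line difference, no test is given.

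Zfp395, whose human counterpart is a hypoxia-linked transcription factor, had 0 reads at 0 min in line 264, against 234 and 278 normalised reads in RAW264.7. In line 3205 it had 11.98 and 2.39. Zfp651 had 0.91 and 8.55 in line 264 and 0 and 7.17 in line 3205, against 658 and 364 in RAW264.7 (log2 fold change -6.84 ± 1.20 (SE), adjusted p = 0.00404, and -7.42 ± 1.20, adjusted p = 0.00257). Zfp608, a repressor of Rag genes in mouse thymocytes, had 14.6 and 9.41 in line 264 and 40.2 and 66.9 in line 3205, against 398 and 339 in RAW264.7 (-4.86 ± 0.49, adjusted p = 0.000144, and -2.80 ± 0.49, adjusted p = 0.00404). All 3 genes were low in each edited library and high in each RAW264.7 library at 0 min, and the calls of Zfp651 and Zfp608 held without any 1 library. Every edited 0 min library of Zfp651 lay below the minimum level of 10, and line 3205 had 3.97 and 19.9 at 60 min. Its place among the members thus rests mainly on RAW264.7, so the tests of Zfp651 are not support for a line difference. At 60 min the call of Zfp651 was lost without the RAW264.7 60 min replicate 1 library (adjusted p = 0.202), the RAW264.7 60 min replicate 2 library (adjusted p = 0.12) or the line 264 60 min replicate 1 library (adjusted p = 0.257) in line 264, and in line 3205 it was lost without the RAW264.7 60 min replicate 1 library (adjusted p = 0.13), the RAW264.7 60 min replicate 2 library (adjusted p = 0.0763) or the line 3205 60 min replicate 1 library (adjusted p = 0.156). Without the filter on low values both were lost (adjusted p = 0.129 and 0.0805), and the line 264 call was lost with a pseudocount of 0.5 (adjusted p = 0.074) and with all 18 libraries in 1 fit (adjusted p = 0.0567). At 120 min Zfp651 did not pass in either line (adjusted p = 0.0739 and 0.0937, and 0.0125 and 0.0181 with the replicate block).

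Some losses were of 1 edited line. Zfp459 had 1 read over both 0 min libraries of line 3205, against 163 reads over both of RAW264.7, a ratio of 183 with a 95% counting interval of 32.4 to 7286. It had 41.9 and 22.2 normalised reads in line 264, against 132 and 48.6 in RAW264.7. Zfp354a, named after its values were seen, had 0 reads in line 3205, against 41.4 and 30.1 in RAW264.7, and 24.6 and 8.55 in line 264. Zfp647, also chosen after its values were seen, had 0 reads in line 264, against 54 reads over both RAW264.7 libraries, and 19.7 and 15.5 normalised reads in line 3205. The counting interval of Zfp459 covers counting error only.

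Zfp345, on chromosome 2, was higher in both edited lines at every time. At 0 min it had 106 and 115 normalised reads in line 264 and 334 and 252 in line 3205, against 16.3 and 17.4 in RAW264.7 (log2 fold change 2.64 ± 0.38 (SE), adjusted p = 0.00134, and 4.03 ± 0.38, adjusted p = 9.89e-05). The 2 calls held without any 1 library and recurred at 60 min (2.62 and 3.95) and at 120 min (3.10 and 4.19). Zfp184 had 95.6 and 41.0 in line 264 and 124 and 76.5 in line 3205, against 6.53 and 10.4 in RAW264.7, given with no test because its place among the members rests on the edited lines. Zfp934 had 122 and 116 in line 264 and 146 and 86.1 in line 3205, against 29.4 and 18.5 in RAW264.7 (2.301 ± 0.39, adjusted p = 0.00335, and 2.21 ± 0.39, adjusted p = 0.00422). No edited library of these 3 genes overlapped RAW264.7.

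Zfp516, an activator of the brown fat gene Ucp1 in mouse, had 1997 and 1542 normalised reads in line 264 and 1792 and 1451 in line 3205, against 599.9 and 484 in RAW264.7 at 0 min (log2 fold change 1.70 ± 0.18 (SE), adjusted p = 0.000187, and 1.58 ± 0.18, adjusted p = 0.000309), and both calls held without any 1 library. At 120 min its difference passed in line 264 (1.10 ± 0.30, adjusted p = 0.0359), a call lost without the RAW264.7 120 min replicate 1 library (adjusted p = 0.173), the RAW264.7 120 min replicate 2 library (adjusted p = 0.123) or the line 264 120 min replicate 1 library (adjusted p = 0.197), and did not pass in line 3205 (0.33 ± 0.30, adjusted p = 0.556). Zfp467, a regulator of the choice between bone and fat cells in mouse, had 656 and 277 in line 3205, against 53.3 and 20.8 in RAW264.7 (3.63 ± 0.76, adjusted p = 0.0108), a call lost without the RAW264.7 0 min replicate 2 library (adjusted p = 0.0913) or the line 3205 0 min replicate 1 library (adjusted p = 0.0761). Zfp773 was higher in 1 edited line and lower in the other at 60 min. It had 105 and 122 in line 3205 and 9.73 and 6.91 in line 264, against 23.8 and 21.1 in RAW264.7 (2.29 ± 0.34, adjusted p = 0.00144, and -1.34 ± 0.34, adjusted p = 0.0233), and its line 264 call was lost without the RAW264.7 60 min replicate 1 library (adjusted p = 0.116), the RAW264.7 60 min replicate 2 library (adjusted p = 0.0771) or the line 264 60 min replicate 2 library (adjusted p = 0.147). Zfp420 was lower in both lines at 120 min, with 206 and 218 in line 264 and 186 and 169 in line 3205, against 763 and 540.3 in RAW264.7 (-1.60 ± 0.25, adjusted p = 0.00211, and -1.85 ± 0.25, adjusted p = 0.00094).

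Zfp110, which encodes an interactor of the neurotrophin receptor p75, had 591 and 495 normalised reads at 0 min in line 264 and 847 and 760.4 in line 3205, against 1595 and 1342 in RAW264.7 (log2 fold change -1.43 ± 0.17 (SE), adjusted p = 0.000411, and -0.87 ± 0.17, adjusted p = 0.0081). The line 264 call was kept when any 1 of its 4 libraries was left out (adjusted p up to 0.00712), and the line 3205 call was lost without the RAW264.7 0 min replicate 1 library (adjusted p = 0.0818). Zfp329 was low in line 3205, with 59.1 and 33.5 at 0 min, against 284 and 293 in RAW264.7 (-2.67 ± 0.31, adjusted p = 0.00037), a call kept when any 1 of its 4 libraries was left out (adjusted p up to 0.00579). In line 264 it had 198 and 259 and did not pass (-0.35 ± 0.31, adjusted p = 0.602). Zfp618 had 144 reads at 60 min in line 264 (55.5 normalised), against 3 reads in RAW264.7 (2.85 normalised). It is given with no test because its place among the members rests on the edited lines.

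**Figure D5:**
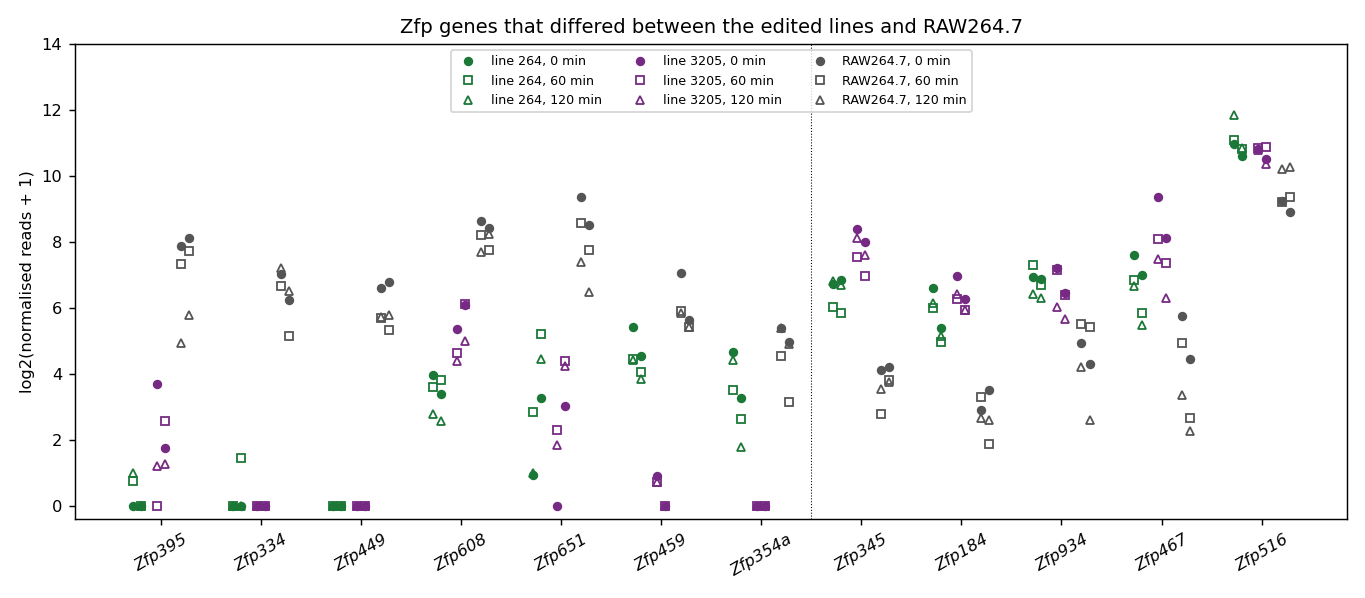
Log2(normalised reads + 1) of 12 Zfp members in every library of line 264, line 3205 and RAW264.7 (circles 0 min, squares 60 min, triangles 120 min of LPS). Zfp334 and Zfp449 have 0 reads at 0 min in both edited lines, and Zfp345 stands higher in both edited lines than in RAW264.7.

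Of 31 Zfp genes listed for a known role, 24 were members. At 60 min 1 of them rose and 1 fell in line 264 (Zfp622 and Zfp217), 1 rose in line 3205 (Zfp622), and 1 rose and 1 fell in RAW264.7 (Zfp622 and Zfp217). With the replicate block 3 rose and 2 fell in line 264, 2 and 1 in line 3205, and 5 and 1 in RAW264.7. The shares of all genes called at 60 min are those given above, and counts among 24 genes are not a result about the panel. Zfp568, a KRAB protein that silences a placental Igf2 transcript in the mouse embryo, had 2160.1 and 3192 normalised reads at 60 min in line 264, against 1085 and 1742 at 0 min. The log2 fold change was 0.93 there, 0.77 in line 3205 and 0.92 in RAW264.7, with adjusted p = 0.339, 0.558 and 0.199. With the replicate block the p-values were 0.000278, 0.00115 and 0.000196, so its call depended on the block.

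Zfp281, a pluripotency regulator, rose at 120 min in line 264, where it had 2920.2 and 2104 normalised reads, against 1669 and 1476 at 0 min (log2 fold change 0.66 ± 0.16 (SE), adjusted p = 0.0413), a call lost without the line 264 0 min replicate 1 library (adjusted p = 0.116), the line 264 0 min replicate 2 library (adjusted p = 0.167) or the line 264 120 min replicate 1 library (adjusted p = 0.244), and without the filter on low values (adjusted p = 0.0607). Its log2 fold change was 0.50 ± 0.16, adjusted p = 0.119 in line 3205 and 0.40 ± 0.16, adjusted p = 0.157 in RAW264.7, with an adjusted p of 0.0191 and 0.0358 with the replicate block. Zfp809, which directs silencing of murine leukaemia virus and related proviruses, had log2 fold changes of 0.12, -0.02 and 0.08 at 60 min in line 264, line 3205 and RAW264.7. Zfp445, a guardian of genomic imprints, had -0.05, -0.16 and 0.01. Neither gene passed at 60 min in any line (adjusted p of at least 0.995).

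Of the panel members not called at 60 min, 3 are given as examples chosen after their values were seen. Zfp91, a ubiquitin ligase linked to noncanonical NF-kappaB signalling, had log2 fold changes of 0.03, 0.04 and 0.07, and Zfp207, the spindle assembly factor BuGZ, had 0.11, 0.15 and 0.03. Zfp143, a promoter-binding factor, had 0.03, 0.07 and -0.06. Between lines, Zfp622 had 3018 and 2983 normalised reads at 0 min in line 3205, against 1587 and 1511 in RAW264.7 (log2 fold change 0.95 ± 0.12 (SE), adjusted p = 0.000511), a call kept when any 1 of its 4 libraries was left out (adjusted p up to 0.00713).

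Genes of the KRAB corepressor pathway and heterochromatin, 34 of 35 of them measured, were set beside the Zfp members. By limma 0 of the 34 rose or fell at 60 min in each line, with 3, 2 and 3 at an unadjusted p below 0.05 in line 264, line 3205 and RAW264.7, and by edgeR 0 passed too. For these unadjusted counts the share of all genes was not counted. The median log2 fold change was 0.02, 0.06 and 0.01. Trim28, the corepressor that KRAB boxes bind, had 0.06, 0.12 and -0.07, and Setdb1 had -0.09, 0.0038 and -0.10. With the replicate block 1, 2 and 1 rose, where 2.1%, 2.33% and 3.7% of all genes rose. At 120 min Ehmt1, a histone H3 lysine 9 methyltransferase, fell in all 3 lines (-0.97, -0.91 and -1.03), and in RAW264.7 Cbx5 and Suv39h2 fell while Daxx and Chd4 rose. Of all genes at 120 min limma called 2.55%, 2.14% and 5.52% lower and 2.88%, 2.89% and 5.08% higher. With the block 4, 6 and 11 of the 34 fell and 1, 1 and 3 rose. The block called 8.61%, 7.12% and 12.4% of all genes lower and 7.77%, 7.18% and 11.3% higher. In line 264 at 0 min 2 of the 34 were higher than in RAW264.7 (Chd3 and Trim24) and 2 lower (Dnmt3a and Atrx), and in line 3205 1 was higher (Dnmt3b) and 3 lower (Dnmt3a, Smarcad1 and Atrx). Of all genes limma called 7.61% higher and 5.57% lower in line 264, and 8.42% and 5.89% in line 3205. With the block 3 of the 34 were higher and 3 lower in line 264, and 3 higher and 7 lower in line 3205. The block called 12.7% of all genes higher and 10.6% lower in line 264, and 14.4% and 12.1% in line 3205. These counts are descriptions of the 34 and not a result about the set. The DNA methyltransferase gene Dnmt3a had log2 fold changes of -1.86 in line 264 and -1.88 in line 3205 against RAW264.7 (adjusted p = 6.88e-06 and 6.95e-06).

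Other zinc finger families also had medians below 0 at 60 min. Of 36 Zbtb genes (BTB domain proteins) at the same minimum level, 0 rose and 3 fell in line 264, 1 and 3 in line 3205, and 3 and 6 in RAW264.7, with medians of -0.33, -0.23 and -0.20. Of 17 Zscan and Zkscan genes (SCAN domain proteins), 0 rose in any line and 0, 0 and 3 fell, with medians of -0.53, -0.49 and -0.51. At an unadjusted p below 0.05 limma had 9 SCAN genes in each line, where the share of all genes was not counted, and edgeR with adjustment called 0, 0 and 1 of them lower. With the replicate block 6, 6 and 12 Zbtb genes and 7, 6 and 9 SCAN genes fell. The shares of all genes called at 60 min by each fit are those set beside the Zfp members above. No test of a difference between these families and the Zfp members was made.

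The deposited tables of primary bone marrow derived macrophages list 193 genes at 60 min and 195 at 120 min, and 3 Zfp members were among them. Both tables carry the same RNA values, so the time they belong to cannot be told. In the authors' deposited table the log2 fold change was 2.28 ± 0.112 (SE) for Zfp719 (adjusted p = 2.07e-28), 1.76 ± 0.158 for Zfp558 (adjusted p = 0.000127) and -1.83 ± 0.204 for Zfp273 (adjusted p = 0.00383). The authors' adjusted p-values are larger than a test of such estimates and SE against 0 would give. They are therefore not set against the p-values of the cell lines, which test against 0. Of the 193 genes, 187 had a value above 0 and 6 below, and a gene that fell is thus rare in them. In the cell lines Zfp719 rose at both times, as above. Zfp558 had log2 fold changes of -0.27, -0.52 and -0.36 at 60 min in line 264, line 3205 and RAW264.7 (adjusted p = 1, 0.939 and 0.818). Zfp273 had -2.85, -0.42 and -1.44 at means of 11.9 normalised reads (adjusted p = 0.106, 1 and 0.434), and in line 264 the replicate block gave an adjusted p of 0.00429.

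The same tables give chromatin immunoprecipitation signal per gene from 1 library per mark and time, so the ratios of 60 over 0 min have no replicate check. H3S31ph, the phosphorylated serine that is particular to histone H3.3, had a signal of 3.35 at 60 min and 1.66 at 0 min on Zfp719, a ratio of 2.02, and its ratio on Zfp558 was 2.24. On Zfp273 the signal was 1.03 at 60 min and 1.42 at 0 min, a ratio of 0.725, and 0 of the 193 genes had a lower one. The median ratio over the 193 genes was 3.83. H3K36me3, a mark of transcribed gene bodies, had a ratio of 0.706 on Zfp273, again with 0 genes lower, 1.15 on Zfp719 and 1.25 on Zfp558, against a median of 1.59. H3K27ac, a mark of active promoters and enhancers, had ratios of 2.09 on Zfp719, 1.86 on Zfp558 and 0.855 on Zfp273, against a median of 1.16. The authors' scaling of this signal was not given in the sources used here.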

How the data were processed

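RNA was measured in 18 libraries, 9 groups of 2, and the labels' protocols name RNeasy extraction and TruSeq libraries. The submitters' processing notes give the build mm10 and, without their order, STAR 2.4.2 (an aligner), Trim Galore 0.5.0 (a read trimmer), featureCounts (a read counter, Subread 1.4.6), DESeq2 (which computes size factors) and R 3.4.0. The deposited signal of each gene was the read count divided by 1 size factor per library. Every value (100%) came out as a whole read within 0.1 read, and the 0 min columns of both tables differed by at most 0.0469, so all 18 libraries share 1 scaling. The design had taken the tables as scaled separately, and each table was still fitted alone. The authors deposited log2 fold changes, adjusted p-values and standard errors (held as a score) of primary macrophages, and chromatin signal per gene whose scaling the sources used here do not give. Those notes also name deepTools 2.5.4, SAMtools 1.5, Picard 2.14.0 and Bowtie2 2.3.4.1, a DNA aligner.

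Genes with a mean of at least 1 normalised read were tested on log2(normalised reads + 1) with limma 3.58.1 (R 4.3.3), moderated with a mean-variance trend, and Benjamini-Hochberg adjustment over all genes. A call is an adjusted p below 0.05. EdgeR 4.0.16 (quasi-likelihood, TMM) was run on the recovered reads, 13084927 to 53860392 per library. On simulated data limma made more false calls than its threshold allows, mainly falls of low genes, and edgeR fewer. Counts by both are given for the LPS responses against 0 min and for differences in response, and in the other comparisons edgeR's count of members called was within 1.5 times of limma's. Same-numbered replicates deviated together (Pearson's r 0.2828 to 0.7596 in the 60 min table and 0.3476 to 0.7215 in the 120 min table, over 15 pairs of groups each), a pairing that comes from the data and the shared number in the labels. Other settings were pseudocounts of 0.5 and 5, no filter, a replicate block and each library left out. With 1 library left in a group, that library was assumed to vary like the other groups. A fit of all 18 libraries and the comparison of 120 with 60 min were added after the data were seen.

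Genes were named by rule: per direction, up to 8 called members with the largest fold change in each LPS response and up to 5 in each line comparison, with a mean of at least 50 in the higher group and ranges apart, plus 31 genes with a known role and those in the primary macrophage tables. Genes outside it are said to have been chosen after their values were seen. The members and gene lists were chosen with earlier results of these data known. The counting interval is exact at 95%. Tables were handled with Python 3.11.15, numpy 2.4.6, pandas 2.3.3 and scipy 1.17.1, and plots with matplotlib 3.10.9. The other 44 of 74 samples were not analysed here.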

Additional observations from a re-analysis of the deposited data

Results flagged for a closer look

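The response to LPS of 3 members differed between an edited line and RAW264.7 once the replicate number was a block, and not without it. With the block 1 of 290 members passed in line 264 at 60 min, where 0.127% of all genes did, and a lone call is not a result about the members. In line 3205 at 120 min 2 of 290 passed, where 0.682% of all genes did, so that count stands at the background and is not a result about the members. Zfp263 differed at 60 min between line 264 and RAW264.7 by -0.911 on the log2 scale (limma adjusted p = 0.033 with the block and 0.18 without). Zfp472 differed at 120 min between line 3205 and RAW264.7 by 0.9888 (0.032 and 0.31), with 637 and 565 normalised reads at 120 min in line 3205, against 682 and 703 at 0 min, and 286 and 285 at 120 min in RAW264.7, against 687 and 626 at 0 min. Zfp275, on chromosome X, differed at 120 min between line 3205 and RAW264.7 by 0.8335 (0.049955 and 0.84), with 1641 and 1871 normalised reads at 120 min in line 3205, against 1012 and 1198 at 0 min, and 867 and 1186 at 120 min in RAW264.7, against 1029 and 1254 at 0 min. What lies behind these differences was not tested.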

How the results depend on the processing

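The replicate block raised the members called to 94, 80 and 106 at 60 min and to 92, 75 and 114 at 120 min in line 264, line 3205 and RAW264.7, and to 63, 45 and 77 for 120 against 60 min. Against RAW264.7 at 0, 60 and 120 min it gave 62, 95 and 73 for line 264, and 69, 91 and 95 for line 3205. For differences in response it gave 1 (line 264, 60 min) and 2 (line 3205, 120 min). Without the filter 1 member each differed in response in line 264 at 60 and at 120 min and in line 3205 at 120 min. With all 18 libraries in 1 fit, 40 and 32 members changed at 120 min in lines 264 and 3205. The shares of all genes called without the filter and in that fit are not given here, so these counts are not a result about the members. The causes of these moves were not tested. With 1 library left out the members called ranged from 4 to 14, 3 to 7 and 9 to 14 at 60 min, 8 to 14, 8 to 12 and 14 to 21 at 120 min, and 3 to 11, 0 to 5 and 7 to 13 for 120 against 60 min. Against RAW264.7 they ranged from 13 to 19, 22 to 30 and 17 to 21 in line 264 and from 18 to 26, 23 to 27 and 18 to 31 in line 3205, and 0 differed in response. Of the 186 calls of members named by rule, 27 were lost without the filter, 5 by edgeR, 6 of 143 with all 18 libraries in 1 fit, 4 with a pseudocount of 0.5, 3 with a pseudocount of 5 and 0 with the block, and no call turned its direction. All counts rest on 2 libraries a group.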
